A study of Mus musculus with 8 samples.

Results

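The genes described here were 10 genes of insulin receptor signalling (Insr, Irs1, Irs2, Akt1, Akt2, Pik3r1, Foxo1, Grb14, Ptpn1 and Igfbp1). They were chosen by name and matched by symbol to the deposited liver expression table, and each had a single row among the 22564 genes listed with values. Liver RNA was sequenced in 4 libraries of db/db mice and 4 libraries of control C57BL/6 mice, all labelled as untreated. The db/db mouse lacks a working leptin receptor in the whole body, overeats and becomes obese, hyperinsulinaemic and diabetic, so the groups did not differ by a lesion of the liver alone. Age, sex and genetic background of the db/db mice are not in the labels, and the controls are given there by strain only. Whether libraries stand for different animals is not stated, and p-values measure spread among libraries, part of which may be technical. Libraries are called replicates 1 to 4 within a group, a numbering that pairs nothing across the groups.

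Insulin binds its receptor on the hepatocyte, and the receptor kinase then phosphorylates the substrates IRS1 and IRS2. These recruit phosphoinositide 3-kinase, whose lipid product activates the AKT kinases, and AKT phosphorylates FOXO1 and keeps it out of the nucleus. In the fed liver this lowers transcription of FOXO1 targets such as those of glucose production and Igfbp1, while other branches raise glycogen and fatty acid synthesis. GRB14 and the phosphatase PTP1B, encoded by Ptpn1, act on the receptor itself and weaken its signal.

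Values are FPKM, fragments scaled by transcript length and by the mapped fragments of a library. They are relative to the length of each gene and the total of each library, so they can be ordered between genes. Fold changes are differences db/db minus control on the log2(FPKM + 1) scale, which understates changes of low genes, with standard errors (SE) and p-values from limma, Benjamini-Hochberg adjusted over all 9863 tested genes. A gene was called at an adjusted p under 0.05. Reads were counted over whole liver, so fewer cells of a type and less RNA per cell cannot be told apart. Of hepatocyte markers, Apoa1 was at 588 to 1221 FPKM in db/db and 13473 to 18621 in the controls, Cyp3a11 was at 1488 or more in all 8 libraries, and Alb was listed at 0 in every library. The hepatocyte list summed to 10223 to 12128 FPKM in db/db against 26861 to 32850 in the controls, with 0 genes higher and 3 lower of 8 tested and a median of -0.28. Much of the gap in that sum was Apoa1, whereas Apob was at 910 to 1044 FPKM in db/db and 932 to 1052 in the controls (adjusted p = 0.988). Lists of Kupffer cell and of sinusoidal endothelial markers each had 0 higher and 2 lower of 8 tested. A list of stellate cell markers had 1 higher and 2 lower of 7 tested. Beside these counts, 16% of all tested genes were called higher and 11.6% lower. The part of these cell types in the results below was not tested. Estimated relative depth ran from 0.815 to 1.09 of that of control replicate 1.

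Of the 10 genes, 9 passed the filter of at least 1 FPKM in at least 4 libraries, and 2 of these 9 were called. Pik3r1, a regulatory subunit of phosphoinositide 3-kinase, was higher in db/db, and Grb14, the adaptor that restrains the receptor, was lower. Over all tested genes 27.7% were called, 16% as higher and 11.6% as lower, so the share of 22.2% among these genes was close to the background. Their median log2 fold change was -0.01, against 0.04 over all tested genes. The other 7 tested genes did not pass the threshold, and Irs2 was too low to be tested. Pik3r1 and Grb14 were also the only members whose db/db and control libraries did not overlap, which was the case for 29.5% of all tested genes.

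**Figure D1:**
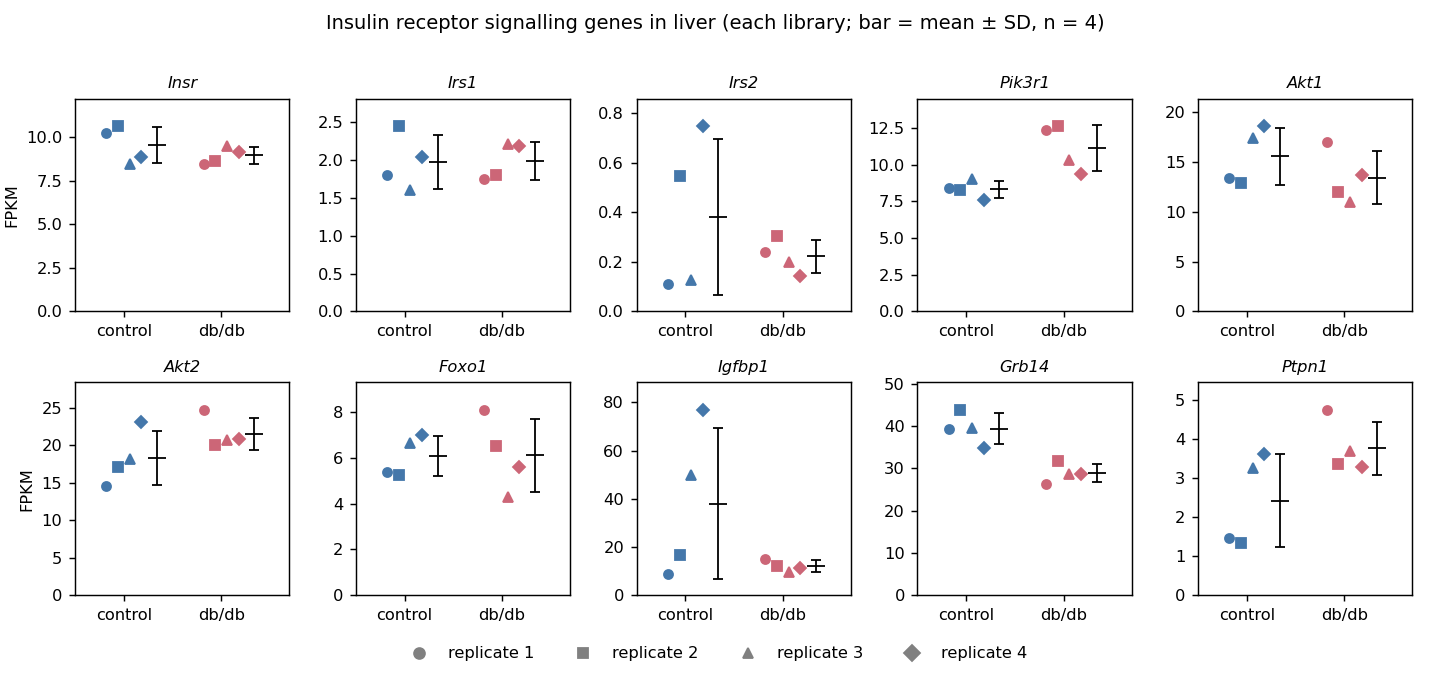
FPKM of each of the 10 genes (vertical axes, each from 0) in the control (blue) and db/db (red) libraries, with marker shape giving the replicate number within a group and bars the mean ± SD of 4 libraries. The groups are apart for Pik3r1 (9.36 to 12.6 in db/db against 7.57 to 8.99) and Grb14 (26.3 to 31.6 against 34.8 to 43.7) and overlap for the other genes.

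Insr encodes the insulin receptor. It was at 8.47, 8.65, 9.50 and 9.14 FPKM in the db/db libraries and at 10.2, 10.6, 8.43 and 8.86 in the control libraries, in the order of the replicate numbers used from here on. All db/db libraries lay within the control range, and control replicates 1 and 2 were the highest of the 8. The difference was -0.08 (SE 0.109, adjusted p = 0.625), with a 95% interval of -0.32 to 0.16, so these libraries leave room for a receptor mRNA level moderately lower or slightly higher in db/db. Of the related receptors, Igf1r, which binds IGF1, was at or below 0.051 FPKM, and Insrr was listed at 0 in every library. Igf2r, which takes IGF2 and lysosomal enzymes into the cell, was at 3.54 to 3.68 FPKM in db/db and 2.43 to 2.72 in the controls and was called higher (log2 fold change 0.36, SE 0.102, adjusted p = 0.0221). That call was lost under quantile normalization and without replicate 2 or 4 of either group, with adjusted p between 0.0508 and 0.0564.

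The substrates came next. Irs1 was at 1.74, 1.80, 2.21 and 2.18 FPKM in db/db and 1.80, 2.44, 1.60 and 2.04 in the controls. The libraries of both groups were interleaved, and the difference was 0.01 (SE 0.129, adjusted p = 0.962, 95% interval -0.27 to 0.29). Its sign changed with the processing. Irs2, the substrate whose gene is itself switched on by FOXO1 when insulin is low, was at 0.240, 0.305, 0.198 and 0.144 FPKM in db/db and 0.111, 0.544, 0.127 and 0.746 in the controls. The 4 db/db libraries fell between the lower and the upper pair of control libraries, and the highest control library was 6.72 times the lowest. With every gene tested regardless of level, its difference was -0.15 (adjusted p = 0.541). Within a library the Irs2/Irs1 ratio was 0.116 ± 0.0468 (SD, n = 4) in db/db and 0.183 ± 0.142 in the controls (log2 difference -0.16, exact 2-sided permutation p = 0.343, adjusted over the 5 ratios 0.343).

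Some limits of the table touch these substrates. Of all 31-base words of the annotated Irs1 transcript, 69.3% occurred in no other gene, the lowest share among the 10 genes. The locus deposited for Irs2 was 2.84 times as long as the annotated gene and holds a non-coding gene, 9530052E02Rik, on the opposite strand. Whether reads were assigned by strand is not given in the sources used here.

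Pik3r1 rose in db/db. Its values were 12.3, 12.6, 10.3 and 9.36 FPKM in the db/db libraries and 8.42, 8.25, 8.99 and 7.57 in the controls. Every db/db library was above every control library, and db/db replicates 1 and 2 were above replicates 3 and 4. The means were 11.1 ± 1.58 against 8.31 ± 0.584 FPKM (SD, n = 4 in each group), 134% of the control mean (log2 fold change 0.38, SE 0.121, 95% interval 0.11 to 0.64, adjusted p = 0.0398). The call lay close to the threshold. It was made in 5 of 14 alternative settings, and adjusted p ranged from 0.0277 to 0.116 over them. It was lost without db/db replicate 1 (0.0933), 2 (0.116) or 3 (0.0551) and without control replicate 1 (0.0795), 2 (0.0762) or 4 (0.0939). The difference stayed positive in all 14 settings.

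The catalytic partner Pik3ca, encoding p110 alpha, was at 4.16 to 5.33 FPKM in db/db and 3.70 to 5.21 in the controls (0.09, adjusted p = 0.629). The Pik3r1/Pik3ca ratio within a library was 2.45 ± 0.526 in db/db and 1.99 ± 0.403 in the controls, and the ranges overlapped (log2 difference 0.28, exact permutation p = 0.229, adjusted over the 5 ratios 0.321). Of 8 tested rows of phosphoinositide 3-kinase genes, 5 were higher and none was lower. The share called was 62.5%, beside 27.7% over all tested genes. The 5 higher rows included 2 rows of Pik3c2g, a class II enzyme found mainly in liver, which are listed under different gene identifiers. The study itself names Pik3c2g for db/db liver, so the count is not independent evidence. These rows passed the filter through the db/db libraries alone, so they had to differ. Without them the share called was 50%, beside 26.3% of all genes with those passing through a single group left out. Then 3 of 6 were higher with a median of 0.23. Besides Pik3r1 these were Pik3cb, encoding p110 beta, and Pik3c3, the class III enzyme of endosomes and autophagy. Pik3cb was at 4.50, 3.98, 3.63 and 3.78 FPKM in db/db and 1.84 to 2.06 in the controls (0.76, SE 0.109, adjusted p = 0.000612), and was called in 14 of 14 settings. Pik3c3 was at 4.39 to 5.80 against 3.21 to 4.11 FPKM (0.41, SE 0.126, adjusted p = 0.0348). It was called in 8 of 14 settings, with adjusted p up to 0.0946 when db/db replicate 2 was left out, and it was also lost without db/db replicates 1 (0.0841) and 4 (0.0585) and control replicates 1 (0.0916) and 3 (0.0802). Over the leave-out settings the list had 1 to 4 calls: 1 without db/db replicate 1 or 2, 2 without db/db replicate 3 or 4 and 3 without control replicate 1, where in the db/db cases the Pik3c2g rows no longer passed the filter.

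Akt1 and Akt2 encode the AKT kinases of liver, of which Akt2 is the one best known for control of glucose and lipid metabolism. Akt2 was at 24.7, 20.0, 20.7 and 20.9 FPKM in db/db and 14.5, 17.1, 18.2 and 23.2 in the controls. The groups overlapped through control replicate 4, and the difference was 0.24 (SE 0.140, adjusted p = 0.226, 95% interval -0.07 to 0.55). Akt1 was at 17.0, 12.0, 11.0 and 13.7 FPKM in db/db and 13.4, 12.9, 17.4 and 18.5 in the controls. The db/db libraries lay low except replicate 1, and the difference was -0.20 (SE 0.160, adjusted p = 0.384, 95% interval -0.56 to 0.15). Neither gene passed the test alone.

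Set against each other within a library, the 2 kinases gave groups that did not overlap. The Akt2/Akt1 ratio was 1.46, 1.67, 1.89 and 1.53 in the db/db libraries and 1.09, 1.33, 1.05 and 1.25 in the controls. The means were 1.63 ± 0.190 against 1.18 ± 0.133 (SD, n = 4), a log2 difference of 0.44 computed on log2((Akt2 + 1)/(Akt1 + 1)). The exact 2-sided permutation p of 0.0286 was the smallest that 4 against 4 libraries can give, and after adjustment over the 5 ratios it was 0.0714 and did not pass. At this floor a ratio passes the adjustment only if more of the 5 ratios reach it than did here, however far the groups are apart. How often the ratios of other gene pairs part the groups was not tested. With a library left out the difference ran from 0.38 to 0.50. Sequence shared with other genes was larger for Akt2, with 86.7% of 31-base words unique, than for Akt1, with 99.9%.

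**Figure D2:**
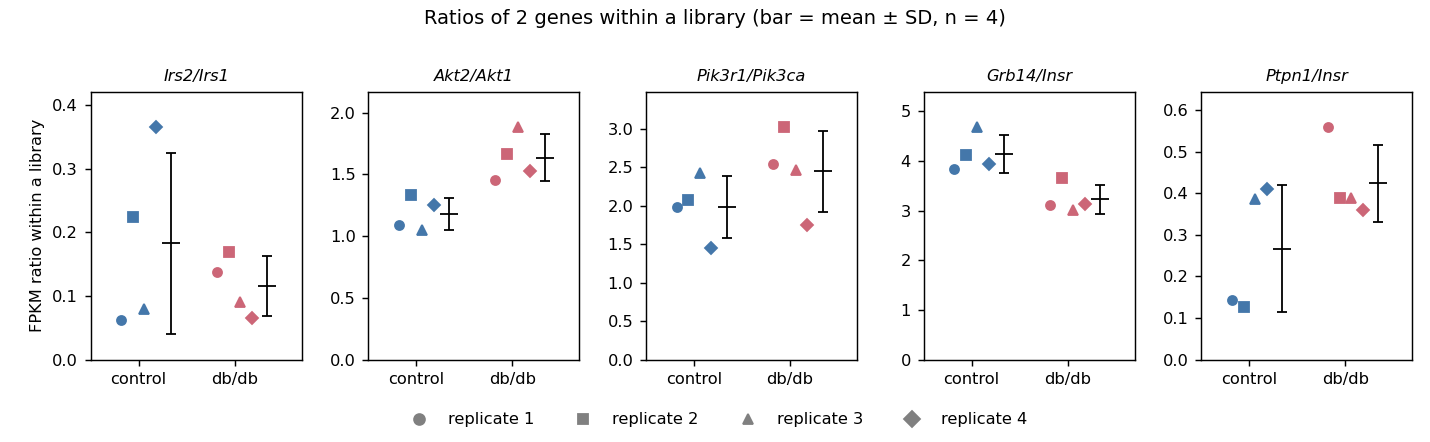
FPKM ratios of 5 gene pairs within a library (vertical axes, each from 0), with control libraries in blue, db/db in red, marker shape giving the replicate number and bars the mean ± SD of 4 libraries. The groups do not overlap for Akt2/Akt1 (1.46 to 1.89 in db/db against 1.05 to 1.33) and Grb14/Insr (3.01 to 3.66 against 3.84 to 4.69), and both adjusted p-values were 0.0714.

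A list of AKT genes and kinases linked to them had 12 tested genes. It holds genes beyond the activators of AKT, namely atypical protein kinase C and Sgk genes. In this list 3 were higher and 1 was lower, with a median of 0.05. The share called was 33.3%, beside 27.7% over all tested genes. Prkcz, an atypical protein kinase C, was lower at 1.73, 1.08, 2.47 and 3.08 FPKM in db/db against 4.77 to 9.56 in the controls (-1.25, SE 0.239, adjusted p = 0.00328). The other atypical enzyme of the list, Prkci, was higher at 2.91 to 3.91 against 1.65 to 2.17 FPKM (0.65, SE 0.122, adjusted p = 0.00294). These 2 opposite calls were made in 14 of 14 settings. Mlst8 and Mtor, subunits of the complexes that contain the mTOR kinase, were higher by 0.45 (adjusted p = 0.0250) and 0.50 (adjusted p = 0.0331). Mlst8 was called in 10 of 14 settings and was lost without db/db replicate 1 (0.0607) or 4 (0.0704) and without control replicate 1 (0.0571) or 4 (0.0657). Mtor was called in 5 of 14 and was lost without each library other than db/db replicate 1 and control replicate 4, with adjusted p up to 0.0930. The list had 2 calls without db/db replicate 4 or control replicate 1.

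Grb14 fell in db/db, and this was the firmest difference among the 10 genes. It was at 26.3, 31.6, 28.6 and 28.6 FPKM in the db/db libraries and 39.4, 43.7, 39.5 and 34.8 in the controls. Every db/db library was below every control library. The means were 28.8 ± 2.17 against 39.4 ± 3.65 FPKM (SD, n = 4), 73.2% of the control mean (log2 fold change -0.44, SE 0.104, 95% interval -0.67 to -0.20, adjusted p = 0.0107). It was called in all 14 alternative settings, with adjusted p from 0.0061 to 0.0325. Relative to the receptor it acts on, the Grb14/Insr ratio was 3.11, 3.66, 3.01 and 3.13 in db/db and 3.84, 4.13, 4.69 and 3.93 in the controls. These ranges did not overlap either (means 3.23 ± 0.291 against 4.15 ± 0.381, log2 difference -0.36, exact permutation p = 0.0286, adjusted over the 5 ratios 0.0714).

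Ptpn1, the phosphatase that removes phosphate from the activated receptor, was at 4.75, 3.36, 3.69 and 3.28 FPKM in db/db and 1.46, 1.34, 3.26 and 3.63 in the controls. Control replicates 3 and 4 were at the level of the db/db libraries and control replicates 1 and 2 below it. The means were 3.77 ± 0.677 against 2.43 ± 1.19 FPKM, and the difference of 0.54 (SE 0.230, 95% interval 0.03 to 1.05) had an unadjusted limma p of 0.0410 and an adjusted p of 0.110. It passed only without control replicate 4 (0.70, adjusted p = 0.0411). The Ptpn1/Insr ratio was 0.424 ± 0.0921 in db/db and 0.267 ± 0.153 in the controls (log2 difference 0.62, exact permutation p = 0.257, adjusted over the 5 ratios 0.321). The table lists Ptpn1 at chr2:167931049-168310868 (mm10), a locus 8.03 times as long as the annotated gene and given also for 7 other genes. Of these, 4 were tested and none was called (adjusted p from 0.115 to 0.843). Another of them, Adnp, a chromatin gene, was listed at 0.357 FPKM or less in all libraries, including values of 1.72e-33 and 7.48e-33, so the division of reads within this locus may not be reliable and the values of Ptpn1 carry that limit.

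**Figure D3:**
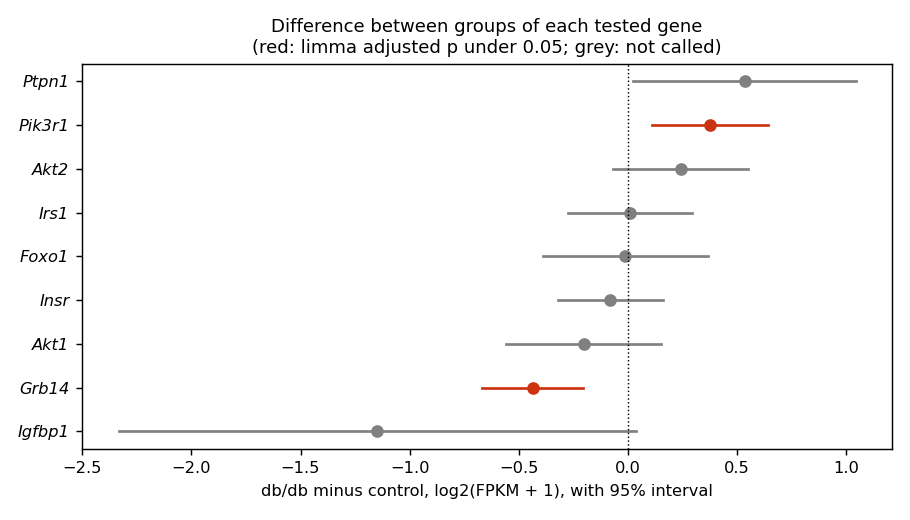
Difference of group means, db/db minus control, on the log2(FPKM + 1) scale (horizontal axis) for the 9 tested genes, with 95% intervals from limma and called genes in red. Grb14 (-0.67 to -0.20) and Pik3r1 (0.11 to 0.64) are called, and the interval of Igfbp1 (-2.33 to 0.04) is the widest.

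Among 27 tested negative regulators of the pathway, Grb14 and Ptpn1 included, 5 were higher and 4 lower with a median of 0.03. The share called was 33.3%, beside 27.7% over all tested genes. Ahsg, encoding fetuin-A, a liver-secreted protein that inhibits the receptor kinase, was lower at 3468, 2519, 2870 and 3074 FPKM in db/db against 6210 to 8193 in the controls (-1.27, SE 0.145, adjusted p = 0.000141). Socs2, a growth hormone-induced suppressor of cytokine signalling, was at 1.61 to 3.80 FPKM in db/db and at 15.4, 10.8, 2.61 and 21.9 in the controls (-1.57, SE 0.473, adjusted p = 0.0308). Control replicate 3 lay within the db/db range, and the call was lost without db/db replicate 2 (0.0802), 3 (0.0622) or 4 (0.0520) and also without control replicate 1 (0.0839), 2 (0.0665) or 4 (0.0720). Prkcd, a protein kinase C that phosphorylates receptor substrates, was lower (-0.43, adjusted p = 0.0331) and was called in 7 of 14 settings. Without control replicate 3 or db/db replicate 2 it was still called, and leaving out any other library ended the call (adjusted p up to 0.0783). Ptpra, a receptor-type tyrosine phosphatase, was higher at 9.21 to 12.5 against 6.17 to 7.63 FPKM (0.59, SE 0.124, adjusted p = 0.0055). Ahsg and Ptpra were called in 14 of 14 settings. Socs3, a cytokine-induced inhibitor of the receptor, was not called. In all, the 9 calls of this list fell to 3 without db/db replicate 4 or control replicate 1 and to 5 without db/db replicate 1, 2 or 3, and 6 were made without control replicate 2 or 3.

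Foxo1, the transcription factor that AKT restrains, was at 8.08, 6.50, 4.27 and 5.59 FPKM in db/db and 5.38, 5.24, 6.65 and 6.98 in the controls. The db/db libraries spanned both ends of the range, replicate 1 being the highest and replicate 3 the lowest of all 8. The means were 6.11 ± 1.60 and 6.06 ± 0.881 FPKM, with a difference of -0.01 (SE 0.171, adjusted p = 0.970, 95% interval -0.39 to 0.37). The sign changed when single libraries were left out. Since FOXO1 is controlled by phosphorylation and location, its mRNA level does not measure its activity. Of 14 tested FOXO factors and partners, 3 were higher and none was lower, a share of 21.4% called beside 27.7% over all tested genes. Ywhah, a 14-3-3 protein of the family that binds phosphorylated FOXO factors, was at 32.4 to 36.5 FPKM in db/db against 18.5 to 24.0 (0.69, SE 0.105, adjusted p = 0.000859). Mdm2, a ubiquitin ligase, was at 10.5 to 14.0 against 7.21 to 9.29 FPKM (0.51, SE 0.128, adjusted p = 0.0135). Ppargc1a, a coactivator of FOXO1 in glucose production, was at 2.25, 2.51, 1.41 and 1.80 FPKM in db/db and 0.677, 0.632, 0.000294 and 0.524 in the controls (1.05, SE 0.190, adjusted p = 0.00238). It passed the filter through the db/db libraries alone, and without it 2 of 13 were higher.

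Igfbp1 encodes a secreted IGF-binding protein that is a classic target of FOXO1, repressed by insulin. It was at 15.2, 12.1, 9.73 and 11.2 FPKM in db/db and 8.60, 16.7, 49.8 and 76.8 in the controls. The db/db libraries were close together, whereas control replicates 3 and 4 were far above all other libraries and control replicate 1 was the lowest of the 8. The coefficient of variation was 19.0% in db/db and 82.7% in the controls. The means were 12.1 ± 2.30 against 38.0 ± 31.4 FPKM, and the difference of -1.15 (SE 0.536, 95% interval -2.33 to 0.04) had an adjusted p of 0.138. It was called only without control replicate 1 (-1.67, adjusted p = 0.0178), and it was -0.67 at the smallest when single libraries were left out.

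Other genes differed between the same control libraries. Per library, in the order of control replicates 1 to 4, Tat, an amino acid-degrading enzyme induced in fasting, was at 532, 495, 1217 and 1018 FPKM. Pck1, the enzyme of the first committed step of glucose production, was at 992, 973, 1246 and 1183 FPKM. Txnip was at 36.4, 47.3, 17.2 and 15.1 FPKM. It is raised by glucose, but like Igfbp1, Tat and Pck1 it is also in the list of genes that insulin represses through FOXO1, described below. Control replicates 3 and 4 thus had the higher values of Igfbp1, Ptpn1, Foxo1, Akt1, Tat and Pck1 and the lower values of Txnip and Insr. These genes were picked after their values were seen, and the feeding state of the mice at collection is not in the labels. Neutrophil markers also differed between these libraries, with S100a8 at 2.22, 2.23, 34.3 and 10.2 FPKM and S100a9 at 5.05, 3.33, 29.5 and 11.9. The 4 markers of that list summed to 1.81 to 10.7 FPKM in db/db and 5.71 to 69.2 in the controls, 0 of 2 tested were called and Ly6g was at 0 throughout. Their part in the spread of Igfbp1 was not tested.

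The promoters were searched for the 7-base motifs CAAAACA and GTAAACA, core forms of the insulin response and forkhead elements, on both strands of windows from 250 bases before to 50 after each annotated start. The motifs share the ending AAACA, but no 7-base site can match both. Either motif was present in 9.63% of all 32851 RefSeq windows, CAAAACA in 6.28% and GTAAACA in 3.65%. Of the 10 genes, 9 had an entry, with 14 windows, and 4 genes had a match, namely Igfbp1, Irs1, Irs2 and Akt1. The 250 bases before the start are shown for Igfbp1 and Irs2, as FOXO1 targets among the 10 genes, and for G6pc, the FOXO1 target of glucose production described next. They are from RefSeq (GRCm38.p6), written 5′ to 3′ on the strand of the gene, with the motif or its reverse complement TGTTTTG in capitals. The windows are chr11:7197537-7197786 (plus strand) for Igfbp1, chr8:11008930-11009179 (minus strand) for Irs2 and chr11:101367466-101367715 (plus strand) for G6pc.
Igfbp1: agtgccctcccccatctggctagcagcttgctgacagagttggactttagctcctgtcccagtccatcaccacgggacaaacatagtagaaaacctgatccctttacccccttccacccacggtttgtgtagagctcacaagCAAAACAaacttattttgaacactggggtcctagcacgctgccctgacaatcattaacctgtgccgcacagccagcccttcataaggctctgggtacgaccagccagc
Irs2: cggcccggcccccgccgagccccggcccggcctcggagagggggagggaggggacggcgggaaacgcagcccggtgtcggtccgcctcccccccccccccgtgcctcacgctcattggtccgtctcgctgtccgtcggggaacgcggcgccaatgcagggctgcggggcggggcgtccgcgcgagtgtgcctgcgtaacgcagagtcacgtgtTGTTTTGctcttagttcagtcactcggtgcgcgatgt
G6pc: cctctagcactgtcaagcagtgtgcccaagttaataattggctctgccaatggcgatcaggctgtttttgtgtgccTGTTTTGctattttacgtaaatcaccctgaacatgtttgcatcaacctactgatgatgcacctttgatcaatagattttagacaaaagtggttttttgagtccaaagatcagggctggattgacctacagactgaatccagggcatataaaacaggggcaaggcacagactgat

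The matches lie at -108 in Igfbp1, -37 in Irs2 and -174 in G6pc, counted from the annotated start. Irs1 held CAAAACA at -111 and -32, and Akt1 held GTAAACA at -161 in 1 of its 2 windows. The windows of Grb14, Pik3r1, Foxo1, Ptpn1 and Akt2 held neither motif, and neither did those of Pck1, Pdk4 and Ppargc1a. These are matches of letters only. Of the pair shown with a match and enough signal to test, Igfbp1 was not called and G6pc was called higher.

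Genes that insulin represses through FOXO1 did not move together. Of 18 tested, 4 were higher and 2 lower, with a median of -0.08, and without Pdk4 and Ppargc1a, which passed the filter through the db/db libraries alone, 2 of 16 were higher. The share called was 33.3%, beside 27.7% over all tested genes. With genes passing through a single group left out it was 25%, beside 26.3%. G6pc, the catalytic subunit of glucose-6-phosphatase, was at 365, 242, 249 and 254 FPKM in db/db and 85.9, 103, 104 and 199 in the controls. The groups did not overlap, although db/db replicate 1 and control replicate 4 were each far above the rest of their group (1.22, SE 0.240, adjusted p = 0.00373). Pdk4, a kinase that inactivates pyruvate dehydrogenase, was at 1.71, 6.36, 8.12 and 8.19 FPKM in db/db and 0.452 to 0.771 in the controls (1.97, SE 0.336, adjusted p = 0.00166). Mttp, which loads lipid onto apolipoprotein B, was at 91.4 to 95.2 against 48.9 to 70.7 FPKM (0.61, SE 0.117, adjusted p = 0.00351). Bcl6, a transcriptional repressor, was lower at 3.48 to 11.1 against 10.0 to 18.3 FPKM (-1.11, adjusted p = 0.0199), and lost its call without db/db replicate 4 (0.0589) or control replicate 2 (0.0524) or 3 (0.0570). Cdkn1b, a cell cycle inhibitor, was lower (-0.44, adjusted p = 0.0430) and lost its call without each library other than db/db replicate 4 (adjusted p up to 0.108). Pck1 (-0.24, adjusted p = 0.189), Tat (-0.07, adjusted p = 0.890) and Igfbp1 were not called. The list had 3 calls without any single db/db library, partly because Pdk4 and Ppargc1a then no longer passed the filter, and 4 without control replicate 2 or 3.

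**Figure D4:**
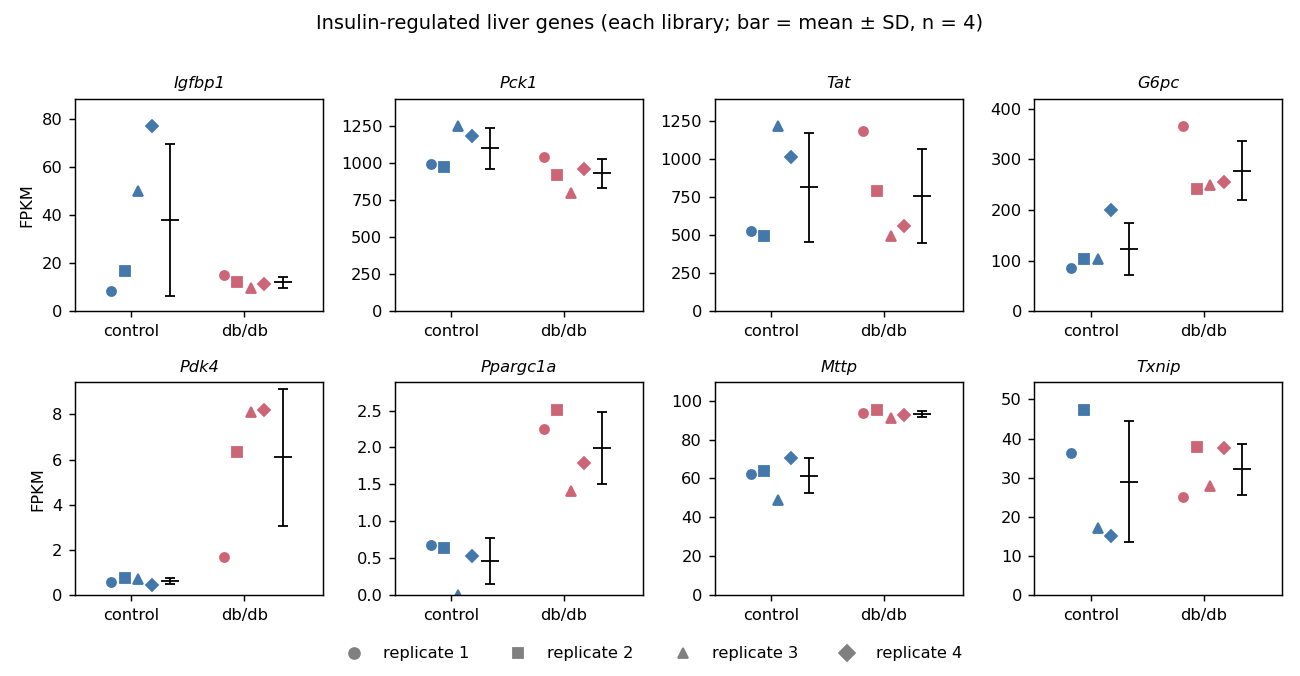
FPKM of Igfbp1 and 7 other insulin-regulated liver genes (vertical axes, each from 0) in the control (blue) and db/db (red) libraries, with marker shape giving the replicate number and bars the mean ± SD of 4 libraries. G6pc and Mttp are higher in db/db without overlap, while Igfbp1, Pck1, Tat and Txnip overlap between the groups and were not called. Pdk4 and Ppargc1a are also apart, but they passed the filter through the db/db libraries alone, so their groups could not overlap.

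Of 17 tested genes that insulin induces, 9 were higher and 1 was lower, with a median of 0.72, beside 16% higher and 11.6% lower over all tested genes. The lists were not tested against other genes. Elovl6, a fatty acid elongase, was at 46.6 to 73.8 FPKM in db/db against 3.51 to 11.5 (3.02, SE 0.273, adjusted p = 2.77e-05). Scd1, the main stearoyl-CoA desaturase of liver, was at 1834 to 4648 against 269 to 524 FPKM, a ratio of group means of 8.25 (adjusted p = 3.96e-05). Thrsp, a lipogenic regulator, and Pklr, liver pyruvate kinase, were higher by 1.99 (adjusted p = 0.000393) and 1.31 (adjusted p = 0.00145). Ccnd1, a G1 cyclin, was lower at 1.53 to 2.46 against 4.66 to 5.60 FPKM (-1.06, SE 0.128, adjusted p = 0.000205). These 5 calls were made in 14 of 14 settings. The study names Elovl6, Scd1, Thrsp, Pklr, Fasn, Acaca, Acly and Ppp1r3b, and G6pc, Pdk4, Ppargc1a, Bcl6 and Igfbp1 of the preceding lists, in its own lists of genes changed in db/db liver, so these counts are not independent evidence of their direction. Of these, Igfbp1 is listed by the study as lower in db/db under its own thresholds, but it was not called here. Ppp1r3g, of the insulin-induced list, is also given there as lower in db/db and was not called here. Pnpla3, of the same list, is given there as higher. It was under the filter here and was called higher with no filter.

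Over the union of all 14 lists, 169 of 207 rows were tested, 40 were higher and 16 lower, which is 33.1% against 27.7% of all tested genes, with a median of 0.12. The higher calls include Pdk4, Ppargc1a and the 2 rows of Pik3c2g, which passed the filter through the db/db libraries alone. With every gene that passed through a single group left out, 36 were higher and 16 lower of 165, which is 31.5% against 26.3% of 9674 genes, with a median of 0.09. Without db/db replicate 4 the calls numbered 35, with 23 higher, and without db/db replicate 2 there were 25 higher. Of the 56 calls, 34 were made in every setting in which the gene was tested. The lists and their medians span both directions, from -0.69 for IGF-binding proteins to 0.72 for insulin-induced genes.

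**Figure D5:**
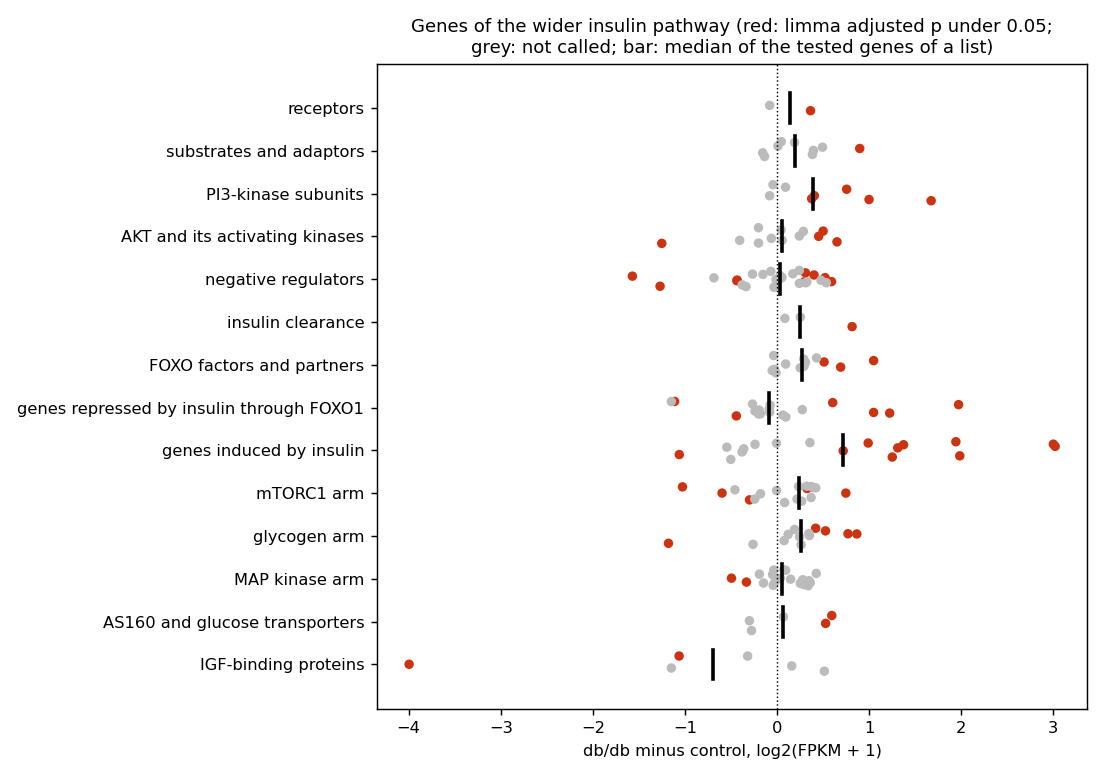
Difference db/db minus control on the log2(FPKM + 1) scale (horizontal axis) of each tested gene in the 14 lists of the wider insulin pathway, with called genes in red, other tested genes in grey and a bar at the median of each list. Insulin-induced genes have a median of 0.72 and IGF-binding proteins of -0.69, and the medians of the other lists lie between -0.08 and 0.39.

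The order of the 10 genes by FPKM, which is scaled by length, was much the same at its ends in both groups. In db/db it ran Grb14, Akt2, Akt1, Igfbp1, Pik3r1, Insr, Foxo1, Ptpn1, Irs1 and Irs2, from a mean of 28.8 to 0.222. The ranges of Akt1, Igfbp1, Pik3r1 and Insr overlapped from neighbour to neighbour, as did those of Foxo1 and Ptpn1. In the controls it ran Grb14, Igfbp1, Akt2, Akt1, Insr, Pik3r1, Foxo1, Ptpn1, Irs1 and Irs2, from 39.4 to 0.382. There the ranges of Grb14, Igfbp1, Akt2 and Akt1 overlapped from neighbour to neighbour, as did those of Insr and Pik3r1 and of Ptpn1 and Irs1. Insr and Pik3r1 thus changed places between the groups, and their ranges overlapped in each. Db/db replicate 1 was the highest of its group for 5 of the 10 genes and control replicate 4 for 6. On a principal component analysis of all tested genes the first component (64.6% of the variance) parted the groups, and db/db replicate 1 stood apart from the other db/db libraries on the next (10.3%), at 27.6 against -14.8 to -4.97.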

How the data were processed

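Liver RNA of 4 db/db and 4 control C57BL/6 libraries was analysed, grouped by the strain in the labels. Per the labels, ribosomal RNA was removed and stranded libraries were made. Per the submitters' notes, the authors used cutadapt 1.9.3 for trimming, HISAT2 2.0.4 for alignment to mm10, and then Cufflinks and Cuffdiff. The version, annotation and strand setting of these last tools were not given in the sources used here. FPKM were deposited by the authors per gene and library. Read totals were not used here, and relative depth was estimated from the values of low genes (under 0.3 FPKM).

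Genes reaching 1 FPKM in 4 or more libraries were tested on log2(FPKM + 1) with limma 3.58.1 (R 4.3.3, mean-variance trend, 2-sided), with Benjamini-Hochberg adjustment over 9863 genes and a threshold of 0.05. An exact permutation test over all 70 assignments of the libraries was used for 5 ratios. The script was tested on simulated data. Alternatives were a pseudocount of 0.1, no filter, median-ratio scaling, quantile normalization, sample quality weights, no mean-variance trend and each library left out. Promoters were taken from RefSeq and gene lengths from GENCODE.

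The 10 genes, the 14 lists and the marker lists were chosen with earlier results of these data known. Named are the 10 genes, the genes of the ratios and up to 4 called genes per list and direction with the smallest adjusted p, and genes of a list at 0 or under the filter. Genes named outside this rule are Pck1, Tat, Txnip, Socs3, S100a8, S100a9, Alb, Apoa1, Apob, Cyp3a11, Ly6g, Adnp, Igfbp3 and the genes credited to the study, chosen after their values were seen. Some items are not reported here.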

Additional observations from a re-analysis of the deposited data

Results flagged for a closer look

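In 116 groups of 4 libraries (the 10 genes, the 5 ratios and the other genes named with values), the gap between an extreme library and its nearest neighbour was compared with the range of the group. The gap exceeded Dixon's 95% critical value for 4 samples in 7 groups. Chance alone gives this in about 5% of groups. None of the 30 groups of the 10 genes and the ratios was among the 7.

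G6pc stood apart in both groups, with db/db replicate 1 at 365 FPKM and a share of 0.901, and control replicate 4 at 199 FPKM and a share of 0.838. Ptpra was at 7.63 FPKM in control replicate 4 against 6.17 to 6.20 in the other controls (0.980). A row of Pik3c2g was at 3.27 FPKM in db/db replicate 1 against 1.12 to 1.45 (0.847). Igfals was at 26.9 FPKM in db/db replicate 1 against 16.8 to 18.1 (0.875). Slc2a9 was at 13.0 FPKM in db/db replicate 3 against 18.7 to 19.1 (0.930), and Gyg at 3.96 FPKM in control replicate 1 against 2.49 to 2.69 (0.865).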

How the results depend on the processing

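Grb14 was called under all 14 alternatives, and Insr, Akt1 and Akt2 kept their direction and were called under none. Of the 10 genes, 1 was called, Grb14, and 0 were higher, without a filter and under median-ratio scaling and quantile normalization, where Pik3r1 had log2 fold changes of 0.38 (adjusted p = 0.0506), 0.32 (0.0628) and 0.34 (0.0545). With single libraries left out, 1 to 2 genes were called, 0 to 1 higher and 1 to 2 lower. Ranges over these settings were 0.32 to 0.45 for Pik3r1, 0.38 to 0.70 for Ptpn1, -1.67 to -0.67 for Igfbp1, -0.0505 to 0.0832 for Irs1 and -0.14 to 0.12 for Foxo1, whose sign turned without replicate 3 or 4 of either group. Irs1 was also below 0 under median-ratio scaling (-0.0285), quantile normalization (-0.0580) and sample quality weights (-0.001424). Of the pathway lists, 35 to 48 rows were called with single libraries left out, 23 to 35 higher and 11 to 15 lower, with 35 called and 23 higher without db/db replicate 4 and 25 higher without db/db replicate 2. Over the whole table, 1582 genes were higher and 1147 lower, against 1351 and 1351 with median-ratio scaling. The causes were not tested. No paired analysis was possible because the labels give no replicate number shared by the groups.

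Precision was limited by 4 libraries a group and by low values, as for Irs2. The depth is unknown, so no counting error can be given. With 4 against 3 libraries the smallest exact p is 0.0571, so ratios without a library are values with no test. FPKM are relative, and Alb, usually a large share of liver RNA, was listed at 0. The deposited loci of Ptpn1 and Irs2 and the shared sequence of Irs1 limit those values.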

Other observations

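Of 6 tested IGF-binding protein genes, Igfbp1 included, 0 were higher and 2 lower, a share of 33.3% called beside 27.7% over all tested genes. Igfbp3, the main IGF carrier of blood, was at 8.94 to 16.9 FPKM in db/db and 6.17 to 9.91 in the controls and was not called (0.51, SE 0.190, adjusted p = 0.0683), but it was called higher in 2 of 14 settings (adjusted p 0.0195 at the lowest). With no filter Igfbp5 was called higher (0.63, adjusted p = 0.0265) and Igfbp6 lower (-0.66, adjusted p = 0.00709). These 3 genes were picked after their values were seen. Igfbp2, an IGF carrier secreted by liver, was at 69.6, 23.4, 25.9 and 62.3 FPKM in db/db and 655, 557, 844 and 615 in the controls (log2 fold change -4.00, SE 0.328, limma adjusted p = 1.42e-05). Igfals, the acid-labile subunit of the circulating IGF complex, was at 16.8 to 26.9 against 37.7 to 47.1 FPKM (-1.06, SE 0.150, adjusted p = 0.000533). Igfbp2 and Igfals were called in 14 of 14 settings, and the study names both for db/db liver, so they are not independent evidence.

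In the glycogen arm, 4 of 13 tested genes were higher and 1 was lower, a share of 38.5% called beside 27.7% over all tested genes. Gys2, liver glycogen synthase, was lower at 86.2 to 121 against 198 to 259 FPKM (-1.18, SE 0.137, adjusted p = 0.000157), while Gyg, the glycogen primer, was higher at 4.87 to 6.10 against 2.49 to 3.96 FPKM (0.77, SE 0.140, adjusted p = 0.00243). Gbe1, the branching enzyme, was higher at 46.8 to 92.9 against 33.9 to 42.3 FPKM (0.87, adjusted p = 0.00597), and Ppp1ca, a catalytic subunit of protein phosphatase 1, was higher at 64.2 to 86.2 against 50.2 to 53.0 FPKM (0.53, SE 0.105, adjusted p = 0.00405). In the mTORC1 arm 3 of 19 were higher and 3 lower, a share of 31.6% called, near the 27.7% over all tested genes. Eif4ebp1, the translation repressor that mTORC1 phosphorylates, was lower at 23.6 to 28.6 against 51.5 to 62.3 FPKM (-1.03, SE 0.106, adjusted p = 7e-05). The study names Eif4ebp1 for db/db liver too, so that count is not independent evidence. The calls of that arm fell from 6 to 2 without db/db replicate 1 or control replicate 1, to 3 without db/db replicate 2 or 3 or control replicate 2, and to 4 without db/db replicate 4 or control replicate 3. Of 20 tested MAP kinase genes 0 were higher and 2 lower, below the 27.7% called over all genes, and 1 was called without control replicate 1, 2 or 4 or db/db replicate 4. Spred2, an inhibitor of that arm, was lower in 14 of 14 settings (-0.49, adjusted p = 0.0123). In the list of AS160 and the glucose transporters, 2 of 5 tested genes were higher and 0 lower, 40% called beside 27.7% over all tested genes. Tbc1d4, which encodes AS160, was under the filter at 0.453 to 0.878 FPKM and was not tested. The list had 1 call without db/db replicate 2 or 4 or without control replicate 2 or 4. Slc2a2, the main glucose transporter of hepatocytes, was higher at 117 to 141 against 72.1 to 96.6 FPKM (0.60, SE 0.117, adjusted p = 0.00373). Of 3 tested genes of insulin clearance 0 were lower and 1 was higher, a share of 33.3% called beside 27.7% over all tested genes. Ctsd, a lysosomal protease that can degrade insulin, was that gene, at 204 to 271 against 121 to 146 FPKM (0.82, SE 0.115, adjusted p = 0.000526).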
